A study of Homo sapiens with 11 samples.

Results

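NNMT and the genes of NAD synthesis were followed in liver tumours grown from human pancreatic carcinoma cells with or without knockdown of NPTX1. The set was 10 genes, NNMT, NAMPT, NMNAT1, NMNAT2, NMNAT3, NADSYN1, QPRT, SIRT1, MAT2A and AHCY, found by symbol among the 23434 rows of the authors' deposited table, and all 10 were present. They were chosen by function with their group means and adjusted p-values in that table already known, so the values that chose them are those described here. Their fold changes and adjusted p-values are therefore a description and not an independent test.

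The tumours came from PANC1 LM3, a liver-metastatic derivative, of generation 3, of the established pancreatic ductal carcinoma line PANC1. The cells expressed the NPTX1 hairpin shNPTX1_3 (3 libraries), the NPTX1 hairpin shNPTX1_4 (4 libraries) or the control hairpin shCTRL (4 libraries, genotype given as WT). All 3 groups were xenografts of the same line: 500000 cells entered the spleen on day 1, and RNA of the liver tumours was taken on day 21. The libraries are called biological replicates, without a statement that each came from its own animal, so the p-values measure only how these libraries spread, in part perhaps for technical reasons. The sources used here give neither strain, age and sex of the host nor the number of clones per hairpin.

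The table holds 1 mean per group and 1 comparison, that of the 7 knockdown libraries together over the 4 control libraries. The libraries one by one were not analysed here, the group means come without an SD, and each change carries the standard error (SE) listed with its log2 fold change in the authors' deposited table. Means are taken to be normalized counts, that is, reads divided by a size factor of the library, from the layout of the table. Of the means up to 2, 73.8% to 77.3% per group were whole reads under 1 size factor per library and the rest were not, and the reason is not known here. The steps of single reads in the low means gave a depth per library of 10800000 to 24000000 reads in shNPTX1_3, 16600000 to 26100000 in shNPTX1_4 and 13000000 to 41200000 in shCTRL. NPTX1 itself was lower with both hairpins, with authors' means of 46.5 normalized counts in shNPTX1_3 and 38.4 in shNPTX1_4, against 103 in shCTRL, in the authors' deposited table. Of the markers of the labelled carcinoma cells, KRT8, KRT18 and VIM were abundant. Their authors' means were 5877 normalized counts or more in every group. KRT7 was low, at 52.5, 27.7 and 11.1 in shNPTX1_3, shNPTX1_4 and shCTRL. Of the 8 markers, 4 rose, KRT8, KRT18, KRT7 and KRT19, beside 15.8% of all genes called higher. VIM, EPCAM, MUC1 and CDH1 were not called. CDH1 was at 620, 210 and 247 in the same order of groups, above control with shNPTX1_3 and below it with shNPTX1_4. The hepatocyte marker albumin (ALB) was below 1 normalized count in each group.

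NAD is a redox carrier and the substrate of sirtuins and of ADP-ribosyl transferases, which release nicotinamide as they consume it. Cells return nicotinamide to NAD through NAMPT, the rate-limiting enzyme of the salvage route, and the NMNAT enzymes, and they also make NAD from tryptophan or from nicotinic acid. NNMT takes nicotinamide out of this cycle by methylating it with S-adenosylmethionine, the methyl donor made by MAT2A, and the by-product S-adenosylhomocysteine is cleared by AHCY. NNMT is known as an abundant enzyme of liver and as a gene raised in several carcinomas and in their fibroblasts.

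The promoters of MAT2A, NADSYN1 and QPRT are shown because these genes passed the test described after them. They are RefSeq sequences on GRCh38.p14, 250 bases before to 50 after a gene's start. The MAT2A window is chr2:85538918-85539217 on the plus strand, that of NADSYN1 is chr11:71452953-71453252 on the plus strand and that of QPRT is chr16:29678930-29679229 on the plus strand. Capitals mark every GC box (GGGCGG, either strand) and every TATA box (TATAAA, either strand).
MAT2A: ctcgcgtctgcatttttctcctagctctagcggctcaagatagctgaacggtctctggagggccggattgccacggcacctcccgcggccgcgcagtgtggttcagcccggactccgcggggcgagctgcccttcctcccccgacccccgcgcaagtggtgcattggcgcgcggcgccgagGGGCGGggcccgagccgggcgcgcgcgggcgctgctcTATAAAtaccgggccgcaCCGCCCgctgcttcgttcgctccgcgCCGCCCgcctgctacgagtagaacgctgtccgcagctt
NADSYN1: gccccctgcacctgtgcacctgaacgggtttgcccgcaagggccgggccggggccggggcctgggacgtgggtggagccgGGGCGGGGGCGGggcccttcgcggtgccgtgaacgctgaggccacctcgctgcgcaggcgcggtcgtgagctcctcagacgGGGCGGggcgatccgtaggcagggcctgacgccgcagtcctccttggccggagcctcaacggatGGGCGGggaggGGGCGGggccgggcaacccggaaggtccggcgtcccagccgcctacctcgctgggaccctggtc
QPRT: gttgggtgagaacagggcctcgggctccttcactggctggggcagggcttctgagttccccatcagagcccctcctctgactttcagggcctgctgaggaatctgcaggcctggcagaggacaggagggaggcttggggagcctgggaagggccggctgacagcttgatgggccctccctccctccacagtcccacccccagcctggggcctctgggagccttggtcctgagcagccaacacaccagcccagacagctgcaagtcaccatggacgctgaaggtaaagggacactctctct

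Of the set, 9 genes had a promoter in the table used, and the tenth was NNMT. The MAT2A window held 3 GC boxes and 1 TATA box, the NADSYN1 window 5 GC boxes and no TATA box, and the QPRT window neither. A GC box was found in 6 of the 9 promoters and in 44.6% of 27305 promoters of the same length, and a TATA box in 12% of them. The ratio of observed to expected CpG dinucleotides was 1.14 in MAT2A and 0.783 in NADSYN1, against 0.0977 in QPRT, with a median of 0.58 over all promoters. The E-box CACGTG was present 2 times in the SIRT1 window and in no other of the 9, and in 7.43% of all promoters. The STAT site TTCNNNGAA was in none of the 9 and in 7.88% of all promoters. These are matches of letters on both strands and say nothing of binding in the tumours.

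Of the 10 genes, 2 rose and 1 fell in the knockdown tumours and 7 did not pass the test (adjusted p under 0.05 by DESeq2, authors' deposited table). Among all genes, 27.3% of 18426 named genes with an adjusted p were called, 15.8% higher and 11.5% lower. With every group scaled to the same total of normalized counts the calls split into 2132 higher and 3017 lower, against 2913 and 2114 as deposited. For calls this scaling lowered every log2 fold change by 0.07, the log2 of the knockdown over the control total, and kept its standard error. With fold changes centred instead on the median gene, 2620 were called higher and 2416 lower. The 2 that rose were NADSYN1, the glutamine-dependent NAD synthetase, and MAT2A, the S-adenosylmethionine synthetase of most tissues outside the liver. QPRT, which turns quinolinate from tryptophan breakdown into a NAD precursor, fell. The median log2 fold change of the set was 0.09 in the authors' deposited table, against -0.01 over all named genes with an adjusted p. In tumour pieces of this kind, fewer cells with a transcript and less of it per cell cannot be told apart.

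**Figure D1:**
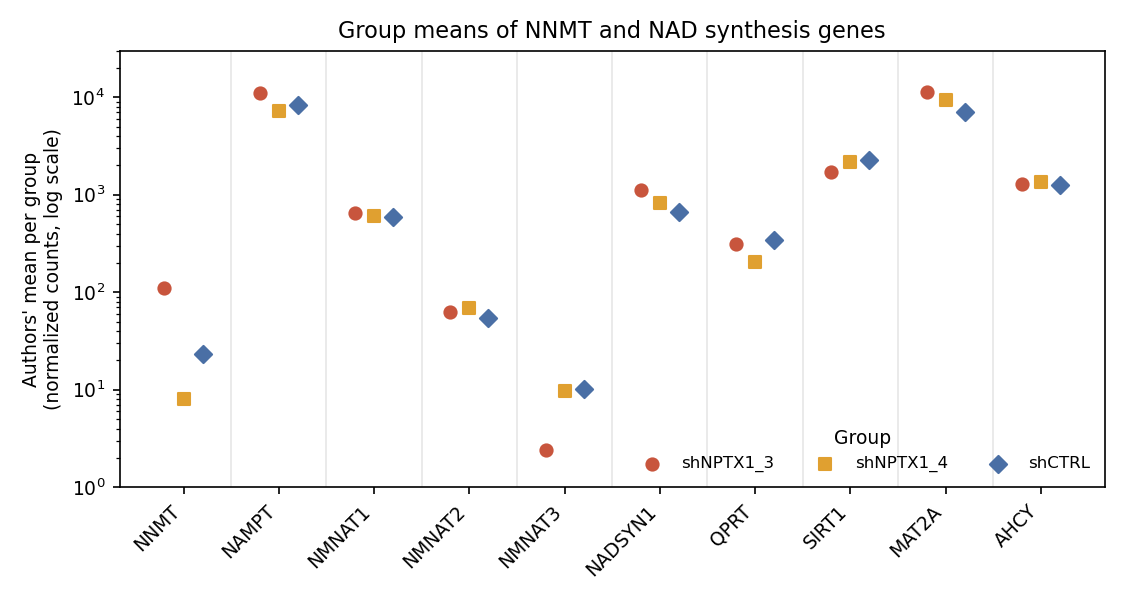
Authors' mean of each of the 10 genes in normalized counts (vertical axis, log scale), with circles for shNPTX1_3, squares for shNPTX1_4 and diamonds for shCTRL; no error is shown because single libraries were not analysed here. NNMT stood at 111, 8.03 and 22.98 normalized counts, while NMNAT1 and AHCY were nearly level across the groups.

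NNMT, the nicotinamide methyltransferase, differed more between the hairpins than any other gene of the set. In the authors' deposited table its authors' mean was 111 normalized counts in shNPTX1_3 and 8.03 in shNPTX1_4, against 22.98 in shCTRL. It was thus 4.83-fold the control mean with the first hairpin and 0.349-fold with the other, and 13.8-fold apart between them. On the log2 scale with a pseudocount of 1, the ratio to control was 2.22 with shNPTX1_3 and -1.41 with shNPTX1_4. The comparison of the 7 knockdown libraries with control gave a log2 change of 1.18 ± 1.01 SE (DESeq2 adjusted p = 0.401, authors' deposited table), and a 95% interval from -0.80 to 3.16. NNMT therefore did not pass the test, and the interval held both a fall and a rise of more than 1.5-fold. Group means allowed no test of the difference between the hairpins.

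A mean of at least 2 CPM (counts scaled by library total, here 38.6 normalized counts) was reached by 9 of the 10 genes, all but NMNAT3, and NNMT reached it only through shNPTX1_3. Of these 9, NNMT alone was at least 2-fold from control with shNPTX1_3, and NNMT alone with shNPTX1_4. With a pseudocount of 10 in place of 1, the log2 ratio of NNMT with shNPTX1_4 was -0.87, short of 2-fold. Over all 14131 genes at that level the shares were 4.47% with shNPTX1_3 and 2.71% with shNPTX1_4. The means of the hairpins lay on opposite sides of control in 2 of the 9, NNMT and NAMPT, and in 23.8% of all genes at that level. These shares are a background for the values and no test of NNMT. The standard error of NNMT was 1.01. Among 1711 genes at 2 CPM or more with a mean within 2-fold of its own, the median standard error was 0.21 and the 90th percentile 0.30. The deposited comparison treats the libraries of both hairpins as 1 group, so a gap between the hairpin means counts as spread within that group. The part of this gap in the standard error of NNMT was not tested. The missing call is thus no statement about either hairpin alone.

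**Figure D2:**
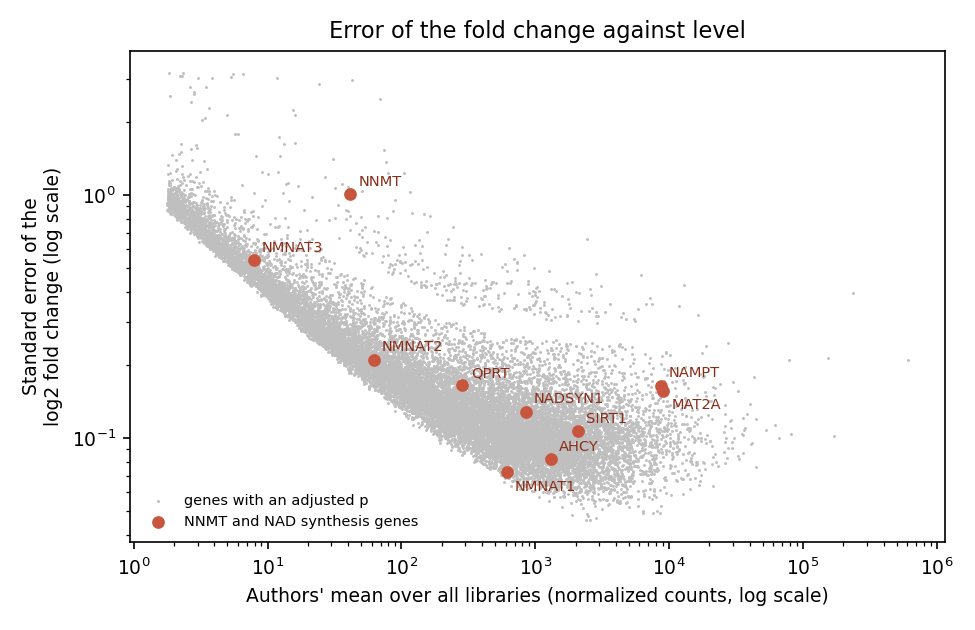
Standard error of the log2 fold change (vertical axis, log scale) against the authors' mean over all libraries in normalized counts (horizontal axis, log scale), with a grey point for each gene with an adjusted p and red points for the 10 genes. NNMT, at 1.01, stands above most genes at its level, and the other 9 lie in the main cloud.

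The 5 genes nearest to NNMT by the log2 ratios of both hairpins were CASP1, POSTN, MMP9, THBS1 and PLSCR4, at Euclidean distances of 0.58, 0.69, 0.72, 0.92 and 0.94. This likeness is over 3 group means that share the control, so it describes a pattern and does not tie these genes together. CASP1, the protease that activates interleukin-1 beta, had authors' means of 180 normalized counts in shNPTX1_3 and 23.2 in shNPTX1_4, against 55.5 in shCTRL, in the authors' deposited table. POSTN, the matricellular protein periostin, had 239 and 21.5 with the hairpins, against 38.7 in shCTRL, in the authors' deposited table. THBS1, which encodes thrombospondin 1, was the most abundant of the 5, with authors' means of 5863 normalized counts in shNPTX1_3 and 963 in shNPTX1_4, against 1364 in shCTRL, in the authors' deposited table. MMP9, a gelatinase, had 117, 18.1 and 32.4 in the same order of groups in the authors' deposited table, and PLSCR4, a phospholipid scramblase, 295, 57.9 and 110. None of the 5 passed the test, with DESeq2 adjusted p-values from 0.167 to 0.550 and standard errors from 0.62 to 0.86 in the authors' deposited table. That test pools both hairpins, and the 5 were picked for hairpin ratios like those of NNMT, so the missing calls are no separate finding.

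**Figure D3:**
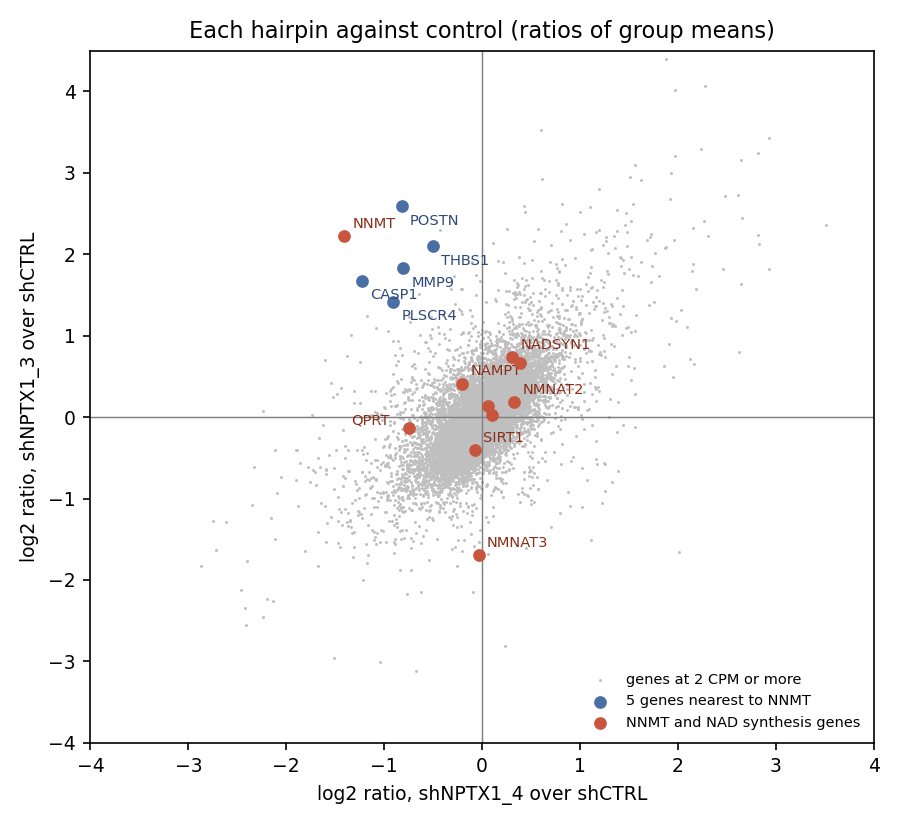
Log2 ratio to control (pseudocount 1) with shNPTX1_3 (vertical axis) against that with shNPTX1_4 (horizontal axis) for genes at 2 CPM or more (grey; 3 lie outside the axes), the 10 genes of the set (red) and the 5 genes nearest to NNMT (blue). NNMT lies in the upper left, at -1.41 and 2.22, apart from the other 9, of which NMNAT3 is the lowest at -1.70 with shNPTX1_3 and the unlabelled points near the centre are MAT2A, NMNAT1 and AHCY.

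NAMPT, which makes nicotinamide mononucleotide from nicotinamide, had authors' means of 11020.5 normalized counts in shNPTX1_3 and 7215 in shNPTX1_4, against 8291 in shCTRL, in the authors' deposited table. Its 2 hairpin means lay on either side of control, as those of NNMT did, and at 1.33-fold and 0.870-fold the distances were small. The log2 fold change was 0.09 with a standard error of 0.16 (DESeq2 adjusted p = 0.712, authors' deposited table), and its 95% interval ran from -0.23 to 0.42.

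The 3 NMNAT enzymes, which join a mononucleotide to ATP to form NAD, differ in where they sit: NMNAT1 in the nucleus, NMNAT2 at the Golgi and in axons, NMNAT3 in mitochondria. NMNAT1 had authors' means of 647 normalized counts in shNPTX1_3 and 611 in shNPTX1_4, against 587 in shCTRL, in the authors' deposited table. Its SE was the smallest of the set (log2 change 0.09 ± 0.07 SE, DESeq2 adjusted p = 0.379, authors' deposited table), and its 95% interval ran from -0.05 to 0.23. NMNAT2 had authors' means of 62.6 and 69.2 normalized counts with the hairpins and 54.8 in shCTRL in the authors' deposited table. It did not pass the test (log2 change 0.26 ± 0.21 SE, DESeq2 adjusted p = 0.378, authors' deposited table). NMNAT3 was barely detected, at authors' means of 2.41 normalized counts in shNPTX1_3 and 9.78 in shNPTX1_4, against 10.1 in shCTRL, in the authors' deposited table. The low mean of shNPTX1_3 amounts to a few reads per library, and NMNAT3 did not pass the test (log2 change -0.57 ± 0.54 SE, DESeq2 adjusted p = 0.459, authors' deposited table). NMNAT3 was the 1 gene of the set below 2 CPM.

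NADSYN1, which completes NAD from nicotinic acid adenine dinucleotide, had authors' means of 1115 normalized counts in shNPTX1_3 and 828 in shNPTX1_4, against 670.0 in shCTRL, in the authors' deposited table. Both hairpins stood above control, at 1.66-fold and 1.24-fold. It rose 1.42-fold in the knockdown libraries (log2 change 0.50 ± 0.13 SE, DESeq2 adjusted p = 9.06e-04, authors' deposited table), with a 95% interval from 0.25 to 0.76.

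QPRT, the enzyme that joins the tryptophan route to NAD, had authors' means of 313 normalized counts in shNPTX1_3 and 206 in shNPTX1_4, against 345 in shCTRL, in the authors' deposited table. The mean of shNPTX1_4 was 0.597-fold that of control and the mean of shNPTX1_3 was 0.909-fold. QPRT fell by 0.46 on the log2 scale (SE 0.16, DESeq2 adjusted p = 0.0245, authors' deposited table), the least firm of the 3 calls. At an adjusted p under 0.01, NADSYN1 and MAT2A were called and QPRT was not.

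SIRT1, an NAD-dependent protein deacetylase, had authors' means of 1716 normalized counts in shNPTX1_3 and 2163 in shNPTX1_4, against 2274 in shCTRL, in the authors' deposited table. It did not pass the test, at a log2 change of -0.20 ± 0.11 SE (DESeq2 adjusted p = 0.142, authors' deposited table). When every group was scaled to the same total of normalized counts, the log2 fold change was -0.27 and the recomputed adjusted p 0.0429. With fold changes centred on the median gene it was -0.23, with a recomputed adjusted p of 0.0978, and SIRT1 was not called.

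On the methyl donor side, MAT2A had the highest mean of the set over all libraries, although in shCTRL NAMPT was higher, with authors' means for MAT2A of 11333 normalized counts in shNPTX1_3 and 9304 in shNPTX1_4, against 7121 in shCTRL, in the authors' deposited table. It rose 1.43-fold (log2 change 0.52 ± 0.16 SE, DESeq2 adjusted p = 0.00672, authors' deposited table), and its hairpin means were 1.59-fold and 1.31-fold that of control. AHCY, the hydrolase of S-adenosylhomocysteine, had authors' means of 1285 normalized counts in shNPTX1_3 and 1357 in shNPTX1_4, against 1261 in shCTRL, in the authors' deposited table. AHCY did not pass the test (log2 change 0.07 ± 0.08 SE, DESeq2 adjusted p = 0.529, authors' deposited table), and the 95% interval from -0.09 to 0.24 was nearly as narrow as that of NMNAT1.

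**Figure D4:**
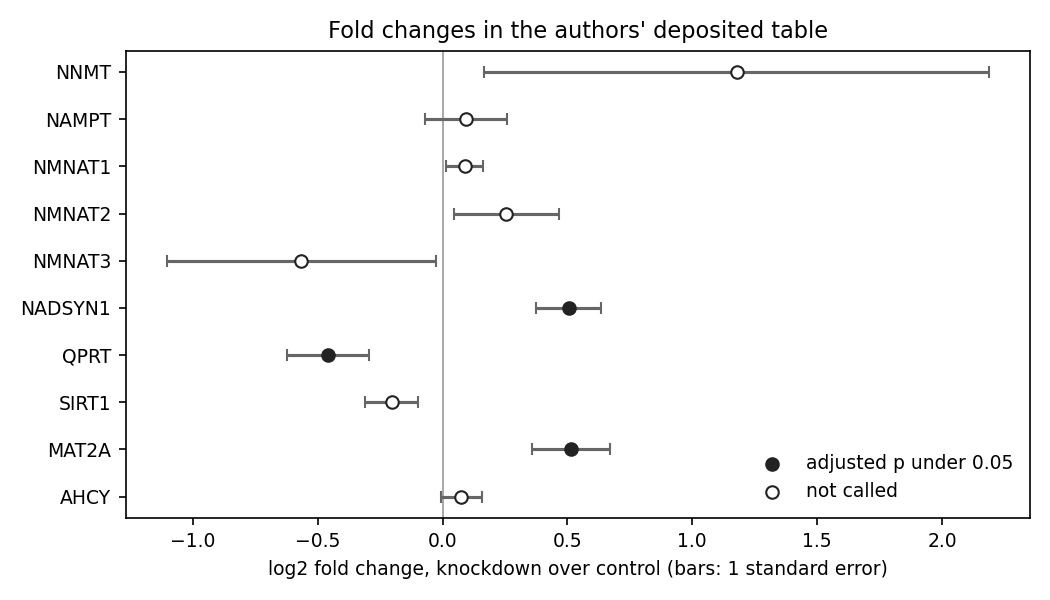
Log2 fold change of the knockdown over the control libraries (horizontal axis) in the authors' deposited table for the 10 genes, with bars of 1 standard error and filled circles for an adjusted p under 0.05. NADSYN1 at 0.50, MAT2A at 0.52 and QPRT at -0.46 are filled, and NNMT has the widest bar.

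Per kilobase of exon (union of exons in GENCODE 29), the mean over all libraries was highest for MAT2A, at 2019.95 normalized counts per kilobase, and next for NAMPT, at 955. SIRT1 followed with 457, AHCY with 334, NMNAT1 with 133, QPRT with 78.5 and NADSYN1 with 52.2 normalized counts per kilobase. NNMT, at 14.2, NMNAT2, at 8.68, and NMNAT3, at 0.606 normalized counts per kilobase, closed the order. The ranges of the 3 group means overlapped for QPRT and NADSYN1 and for NNMT and NMNAT2, and did not overlap for the other neighbours. NNMT was thus a low gene in these tumours, at 2.75 to 38.0 normalized counts per kilobase across the groups, against 797 to 1218 for NAMPT. By the longest transcript, AHCY stood above SIRT1 and NADSYN1 above NMNAT1 and QPRT.

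Some of these genes share exon sequence with a neighbour in GENCODE 29, and the sources used here do not say whether the counting used strand. MAT2A shares 558 of its 4487 exon bases with GGCX on the opposite strand, QPRT 572 of 3642 with the protein-coding gene AC009086.2 on the same strand, and NAMPT 786 of 9049 with an antisense gene. NAMPT, NMNAT1 and AHCY have 3, 5 and 6 pseudogenes named for them that can share reads. NNMT, NADSYN1, NMNAT2 and SIRT1 share no exon base with another gene, although an antisense gene overlaps the NNMT locus on chromosome 11.

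The lists here and below were made with earlier results of these data known, so their shares describe these data and are no independent test. The wider NAD salvage list held 20 genes, 19 of them tested. Of these, 5 rose and 1 fell, by the authors' deposited table, or 26.3% and 5.26%, against 15.8% and 11.5% of all genes, and the median log2 fold change was 0.16. NMRK1, the kinase that starts the use of nicotinamide riboside, had authors' means of 279 normalized counts in shNPTX1_3 and 207 in shNPTX1_4, against 133 in shCTRL, and rose by 0.84 on the log2 scale (SE 0.15, DESeq2 adjusted p = 8.32e-07, authors' deposited table). ENPP1, an ecto-enzyme that splits nucleotides such as NAD and ATP outside the cell, rose by 1.26 in the authors' deposited table (SE 0.08, DESeq2 adjusted p = 2.84e-47). NT5E, the ecto-nucleotidase CD73, rose by 0.57 (SE 0.14, DESeq2 adjusted p = 6.58e-04, authors' deposited table), and NT5C2, a cytosolic nucleotidase, by 0.25. NT5C2 and NADK2 are named after their values were seen. NADK2, the mitochondrial NAD kinase, fell by 0.39 (DESeq2 adjusted p = 0.0139, authors' deposited table). NAPRT, the entry enzyme for nicotinic acid, did not pass the test, at a log2 fold change of -0.09 (DESeq2 adjusted p = 0.699, authors' deposited table).

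Of 13 tested genes of the de novo route from tryptophan, 2 rose and 1 fell, or 15.4% and 7.69%, against 15.8% and 11.5% of all genes, and the median log2 fold change was -0.10 in the authors' deposited table. Besides QPRT, the called genes were SLC3A2, the heavy chain of a large amino acid transporter, which rose by 0.47, and TDO2, tryptophan dioxygenase, which rose by 2.60 (SE 0.80, DESeq2 adjusted p = 0.00697, authors' deposited table). TDO2 was very low, with authors' means of 19.2 normalized counts in shNPTX1_3 and 3.55 in shNPTX1_4, against 1.74 in shCTRL, and it is named after its values were seen. IDO1, IDO2 and KMO, other enzymes of tryptophan breakdown, did not pass the test, with DESeq2 adjusted p-values of 0.461, 0.343 and 0.729 in the authors' deposited table. When every group was scaled to the same total, 1 gene of this list was called higher and 3 lower, with HAAO and AADAT added and SLC3A2 lost. Centred on the median gene, 2 were higher and 2 lower.

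Among 20 tested genes of the NAD consumer list, 2 rose and 0 fell, by the authors' deposited table, so 10% were called, against 27.3% over all genes. The list also counts PARG and MACROD1, which remove ADP-ribose and do not consume NAD, and neither was called. The NAD consumer SIRT7, a nucleolar sirtuin, rose by 0.47 (SE 0.14, DESeq2 adjusted p = 0.00489, authors' deposited table). PARP3, an ADP-ribosyl transferase of DNA repair, rose by 0.68, with authors' means of 571 normalized counts in shNPTX1_3 and 320 in shNPTX1_4, against 265 in shCTRL, in the authors' deposited table. PARP1, the main nuclear consumer, had a log2 change of -0.06 ± 0.08 SE (DESeq2 adjusted p = 0.651, authors' deposited table). With every group at the same total, 2 consumers were called higher and 3 lower, the 3 being SIRT1, PARP2 and TNKS. With centring on the median gene, 2 were higher and 0 lower, as in the deposited calls.

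Of the 12 nicotinamide and small-molecule methyltransferases and clearance enzymes, 0 rose and 1 fell, by the authors' deposited table, so 8.33% were called, against 27.3% over all genes. The 1 was AOX1, the aldehyde oxidase that oxidises the methylnicotinamide made by NNMT, with authors' means of 282 normalized counts in shNPTX1_3 and 208 in shNPTX1_4, against 375 in shCTRL, and a fall by 0.65 on the log2 scale (SE 0.13, DESeq2 adjusted p = 1.62e-05, authors' deposited table). HNMT, the histamine methyltransferase, had authors' means of 338 and 169 normalized counts with the hairpins and 177 in shCTRL and did not pass the test (DESeq2 adjusted p = 0.192, authors' deposited table).

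Of 25 genes of the methionine cycle and methyl donor supply, 4 rose and 1 fell, by the authors' deposited table, or 16% and 4%, against 15.8% and 11.5% of all genes, with a median log2 fold change of 0.07. MTAP and ADI1, which return methylthioadenosine to methionine, rose by 0.54 (standard error 0.11) and 0.43 (standard error 0.10) in the authors' deposited table. AHCYL1, an AHCY-like protein named after its values were seen, rose by 0.22, a call lost when every group was scaled to the same total, and the betaine-homocysteine methyltransferase gene BHMT2 fell by 0.27 (DESeq2 adjusted p-values 0.0159 and 0.0438, authors' deposited table). MAT1A, the liver form of the synthetase, was low, with authors' means of 9.47 normalized counts in shNPTX1_3 and 7.35 in shNPTX1_4, against 8.88 in shCTRL, in the authors' deposited table. MAT2B, the regulatory partner of MAT2A, had a log2 fold change of 0.20 and a DESeq2 adjusted p of 0.0604 per the authors' deposited table.

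Among the 20 chromatin methyltransferases, which use the methyl donor that MAT2A makes, 1 rose and 10 fell, by the authors' deposited table. That is 50% lower, against 11.5% of all genes, and 17 of the 20 were below control with both hairpins, against 39.1% of all genes with an adjusted p. SETD1B fell by 0.75, KMT2D by 0.66, KMT2B by 0.60 and KMT2A by 0.59 on the log2 scale per the authors' deposited table, with standard errors of 0.17, 0.15, 0.12 and 0.14. These 4 deposit methyl groups on lysine 4 of histone H3, as background from their known activity. KMT2A had authors' means of 6689 normalized counts in shNPTX1_3 and 9209 in shNPTX1_4, against 12228 in shCTRL, in the authors' deposited table. SUV39H1, a methyltransferase of heterochromatin named after its values were seen, rose by 0.34, a call that was lost with every group at the same total (adjusted p = 0.0839), where 0 were higher and 11 lower. When centred on the median gene, the list had 1 higher and 10 lower. By the union of exons over all annotated transcripts of a gene, the list had a median of 9.95 kb, against 4.54 kb over all genes. Among genes at 2 CPM or more of that length or longer, 22.9% were called lower and 12.7% higher, and among shorter ones 11.6% and 20.7%. The part of length in the list's counts was not tested.

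Of 13 tested genes listed as possible upstream factors of NNMT, 5 rose and 1 fell, by the authors' deposited table. That is 38.5% and 7.69%, against 15.8% and 11.5% of all genes, for a list made with earlier results known. Whether these factors act on NNMT in these tumours was not tested. LIF, a cytokine of the interleukin 6 family, rose by 0.81 with authors' means of 5938 normalized counts in shNPTX1_3 and 3301 in shNPTX1_4, against 2533 in shCTRL, in the authors' deposited table. Its receptor LIFR rose by 0.62 and the shared receptor chain IL6ST by 0.44 (DESeq2 adjusted p-values 2.85e-04 and 0.0138, authors' deposited table). FOXA2, an endoderm transcription factor, rose by 1.23, with authors' means of 333 and 567 normalized counts with the hairpins, against 199.7 in shCTRL, in the authors' deposited table. IL6, at a low level, rose by 0.95, with authors' means of 54.7 and 26.2 normalized counts with the hairpins, against 20.2 in shCTRL, in the authors' deposited table. ZEB1, a repressor of epithelial genes, fell by 0.20 (DESeq2 adjusted p = 0.0424, authors' deposited table). IL6 and ZEB1 are named after their values were seen. STAT3 did not pass the test, with a log2 fold change of -0.07 and a standard error of 0.13 (DESeq2 adjusted p = 0.748, authors' deposited table).

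**Figure D5:**
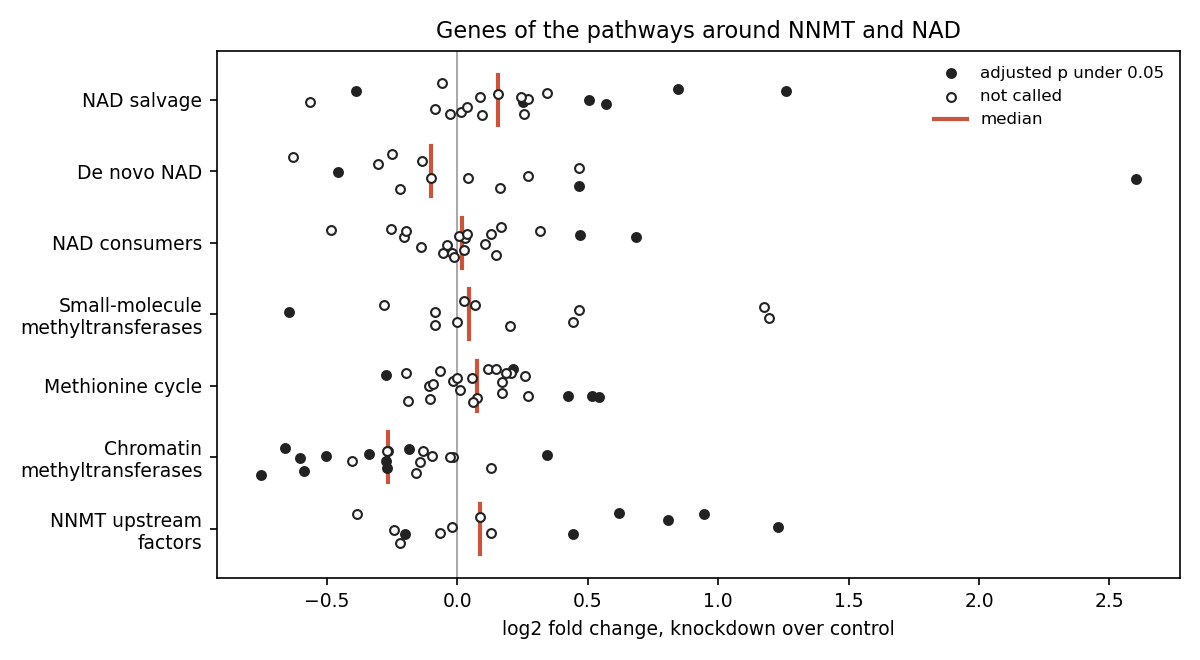
Log2 fold change of the knockdown over the control libraries (horizontal axis) in the authors' deposited table for the tested genes of 7 lists, with filled circles for an adjusted p under 0.05, open circles for the rest and a red bar for the median. The chromatin methyltransferases lie mostly left of 0, with a median of -0.27, and the medians of the other lists lie between -0.10 and 0.16.

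NNMT is also a gene of hepatocytes and fibroblasts, and the sources do not say whether mouse reads were removed before counting, so the markers of host cells are given beside it. The 11 hepatocyte markers summed to 266 normalized counts in shNPTX1_3 and 153 in shNPTX1_4, against 147 in shCTRL, and 10 of them were below 2 CPM. Of the 7 tested, 2 rose in the authors' deposited table, APOA1 and TF, beside 15.8% of all genes called higher. Among the 11, ALB was at 0.616, 0.284 and 0.784 and TTR at 0, 0.185 and 0.473 normalized counts in the same order of groups. AHSG was at 0 in shNPTX1_3 and shCTRL and at 1.14 in shNPTX1_4. Others were higher, with CYP2E1 at 66.0, 40.9 and 43.7 and SERPINA1 at 48.2, 25.6 and 28.9. APOB was at 36.2, 12.5 and 17.3 and FGB at 20.1, 18.9 and 22.4 normalized counts. The 8 fibroblast markers summed to 6525 normalized counts in shNPTX1_3 and 3466 in shNPTX1_4, against 1742 in shCTRL. The largest part of each sum was the collagen gene COL3A1, at 5517, 2247 and 731 normalized counts. Of the 8, 2 rose in the authors' deposited table, COL3A1 and LUM, beside the same 15.8% of all genes. Others of the 8 lay differently and did not pass the test. COL1A2 was at 17.8 and 17.5 normalized counts with the hairpins, against 74.3 in shCTRL (DESeq2 adjusted p = 0.0559, authors' deposited table). ACTA2 was at 163 in shNPTX1_3 and 75.6 in shNPTX1_4, against 128 in shCTRL (DESeq2 adjusted p = 0.646, authors' deposited table), above control with the first and below it with the other. The fibroblast markers DCN, at 4.27, 3.37 and 2.41, and PDGFRB, at 6.32, 6.44 and 7.58 normalized counts, were near the lower end of the table. The leukocyte sums were 929 and 762 normalized counts with the hairpins and 861 in shCTRL, mostly CD68, at 794, 635 and 697. CD14 was at 22.8, 6.30 and 16.6 normalized counts, above control with shNPTX1_3 and below it with shNPTX1_4, as CD68 was. PTPRC, LYZ and CSF1R were below control with both hairpins, and CD3E and MS4A1 were near the lower end of the table. Of the 5 leukocyte markers tested, 0 were called. The endothelial sums were 422 and 368 normalized counts with the hairpins and 371 in shCTRL, mostly KDR. The endothelial cadherin gene CDH5 was low, at 32.3 normalized counts in shNPTX1_3 and 1.80 in shNPTX1_4, against 6.88 in shCTRL, or 4.70-fold and 0.262-fold (DESeq2 adjusted p = 0.533, authors' deposited table), beside 4.83-fold and 0.349-fold for NNMT. The other endothelial markers each lay on the same side of control with both hairpins. In the order shNPTX1_3 and shNPTX1_4, PECAM1 was at 0.742-fold and 0.774-fold and KDR at 1.28-fold and 1.16-fold. CLDN5, at 0.746-fold and 0.576-fold, and VWF, at 3.81-fold and 1.38-fold, were near the lower end of the table. The part of these markers in the NNMT values was not tested.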

How the data were processed

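RNA-seq was made from total RNA of liver tumours with a Norgen purification kit and the TruSeq RNA kit, version 2, per the labels' protocols. DESeq2 1.24, featureCounts 2.0.0, STAR 2.7.6a and MultiQC 1.9 were used, with hg19 and mm39 as builds, per the submitters' processing notes, which give no roles. Annotation, strand setting and handling of mouse reads were not given in the sources used here. Per the file headers, the authors' deposited table gives group means, a signal of counts divided by size factors, with a log2 fold change, its standard error, a Wald score, and raw and adjusted p-values. In 21894 of 21898 rows the overall mean matched the group means weighted by library number within a relative 1e-06.

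Of 23434 rows, 107 without a unique gene name were left out (79 unnamed, 26 named by a date, 2 repeated), with 0.387% of the normalized counts, which left 18426 genes with an adjusted p. From the table were computed 95% intervals, hairpin ratios (pseudocount 1), counts per list, and adjusted p-values under other scalings (Python 3.11.15, scipy 1.17.1). Depth came from single-read steps in low means: 73.8%, 75.2% and 77.3% of the means up to 2 normalized counts in shNPTX1_3, shNPTX1_4 and shCTRL were whole reads within the printed digits. Reads of single libraries could not be rebuilt, so the planned edgeR fit was replaced by the authors' DESeq2 test, and no test per library, pair or hairpin was made. Among genes at 2 CPM or more the SE had a median of 0.13.

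The members and lists were chosen with earlier results of these data known. Genes named were the members, NPTX1, markers, up to 4 called genes of each list with the largest changes at 2 CPM or more, other list genes as called or not, and the 5 genes nearest to NNMT. Exon lengths come from GENCODE 29 and promoters from RefSeq, both on GRCh38, not the authors' build, so no other coordinates are printed. The adjustment code was tested on simulated data.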

Additional observations from a re-analysis of the deposited data

How the results depend on the processing

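The count of 3 called members held when p-values were adjusted over all named genes or rows with a p, or over genes at 2 CPM or more. At an adjusted p under 0.01 it was 2, within 1.5 times. For calls, scaling every group to the same total lowers each log2 fold change by 0.07 with its standard error kept. It gave 4 called members, with SIRT1 added. Hairpin ratios were scaled by the total of their own group. With fold changes centred on the median gene, SIRT1 was not called (-0.23, recomputed adjusted p = 0.0978). Over all genes scaling to the same total turned the split of calls to 2132 higher and 3017 lower, 41.4% higher, against 2913 and 2114. Centring on the median gene gave 2620 higher and 2416 lower, 52.0% higher. Of the lists, 34 genes were called, 19 higher and 15 lower. Adjusted over all named genes with a p, 32 were called. With the same total 37 were called, 16 higher and 21 lower, since 3 calls were lost (AHCYL1, SLC3A2 and SUV39H1) and 6 gained (AADAT, HAAO, PARP2, SETD1A, SIRT1 and TNKS). Centred on the median gene, 19 were higher and 16 lower, with 0 calls lost and 1 gained. Of 90 alternative values of single members, 86 kept their call or moved by less than the deposited standard error, and SIRT1 gained a call at the same total (-0.27, adjusted p = 0.0429). Hairpin ratios have no call and no error of their own. The standard error of the pooled comparison stood in for them, and at 1.01 for NNMT it let large moves count as the same. With the same total, the shNPTX1_3 ratio of AHCY was -0.07 in place of 0.03, a change of sign, and that of NMNAT1 0.05 in place of 0.14. With a pseudocount of 10, the shNPTX1_3 ratio of NMNAT3 was -0.69 in place of -1.70. The ratios of NNMT were then 1.87 in place of 2.22 with shNPTX1_3 and -0.87 in place of -1.41 with shNPTX1_4. The NMNAT1, NMNAT3 and NNMT ratios kept their direction, and a higher pseudocount draws low genes toward 0 by construction. Scaling to the same total moved the list medians of the NAD consumers to -0.05 in place of 0.02 and of the small-molecule methyltransferases to -0.02 in place of 0.05. Centred on the median gene, these medians were -0.006 and 0.02. The adjustment over all rows and the lengths by longest transcript were chosen after seeing the data. No paired analysis was possible because the table holds group means without values per library, and for the same reason leaving out each library and the count tools could not be run. NMNAT3, near the lower end, carries an error too wide for a change of 2-fold to be called.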
